A study of Oncorhynchus mykiss with 28 samples.

Results

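Good photoperiod eggs were the unfertilized eggs of 4 rainbow trout (Oncorhynchus mykiss) females whose ovulation date had been shifted by photoperiod manipulation (PM) and whose eggs gave 80% or more normal alevins at yolk-sac resorption, the stage at which the yolk is used up. They were PM replicates 11 to 14 and are called good PM eggs here. They were set against the eggs of 4 females that ovulated naturally (N replicates 1 to 4), so that 8 of the 28 arrays analysed here carried the comparison. It asks whether eggs differed in stored mRNA after photoperiod manipulation when they still developed. The 80% threshold lay between PM replicate 11, with 82.5% normal alevins, and PM replicate 10, with 71.5%.

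All 28 females were of an autumn-spawning strain, and both groups were labelled 2003. PM females had already spawned once and were then held in light-proof tanks, first under constant light and then under short days until they ovulated. N females were kept under natural day length and moved to a recirculated water system before ovulation. Eggs were stripped some days after ovulation was detected, and each array held RNA pooled from eggs of 1 female. Photoperiod, tank, season and earlier spawning therefore cannot be told apart. The other arrays, which served to estimate the spread between females, came from 10 PM females under 80% normal alevins, 5 females hormonally induced with a GnRH analog (HI) at or above 80%, and 5 HI females below it. All HI samples were labelled 2004.

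A ripe fish egg is nearly silent in transcription, and the first divisions of the embryo run on mRNA and protein that the mother laid down during oogenesis. An array of unfertilized eggs thus reads the maternal store, without any transcript made by the embryo. Day length sets the time of spawning in trout through the brain, the pituitary and the ovary, and shifting it moves the end of oogenesis and ovulation to another time of the year.

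The good PM females gave eggs of high quality, though with fewer normal alevins than the N females. Normal alevins were 82.5, 82.8, 92.9 and 93.8% of the eggs of PM replicates 11 to 14, and 95.9, 96.6, 97.9 and 98.8% of those of N replicates 1 to 4. The mean was 88.0 ± 6.19% in good PM females and 97.3 ± 1.30% in N females (SD, n = 4 each), and the groups did not overlap. Egg quality therefore cannot be told apart from photoperiod in this comparison either. Because the PM females were chosen by normal alevins, this measure was not tested. Eyed embryos ranged from 87 to 99% in good PM and from 96 to 100% in N females, and malformed alevins from 2 to 4.7% in good PM and from 1.2 to 2.7% in N females. The label of PM replicate 13 gives more normal alevins (92.9%) than eyed embryos (89%). N replicate 1 carries the same female number in the labels as PM replicate 4, a PM female of low quality that was not in either group compared.

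Signals are given as log2 of the deposited intensity, on which 0 is the median clone of an array. Of 9023 cDNA clones, 8277 had a value in at least 3 females of each group and were tested, and 8019 of these had one on all 8 arrays. No clone had values on all arrays of 1 group and on none of the other. Pearson's r over the 8019 clones was 0.945 to 0.976 between good PM arrays, 0.933 to 0.953 between N arrays and 0.939 to 0.961 between the groups, as a description across clones. The good PM arrays fell into pairs, with an r of 0.970 for PM replicates 11 and 12 and 0.976 for PM replicates 13 and 14. Across these pairs r was 0.945 to 0.955, within the range between the groups. Clones with a value numbered 8354 and 8307 in the first pair and 8655 and 8650 in the second. The interquartile range of log2 signal was 1.54 ± 0.08 on good PM arrays and 1.54 ± 0.17 on N arrays (two-sided exact permutation test, p = 1, n = 4 each). Clones with a value numbered 8307 to 8655 on good PM arrays and 8241 to 8626 on N arrays (exact permutation p = 0.2, adjusted p = 0.4 over both measures), and 0.0286 is the smallest p that 4 arrays against 4 can give. The labelled tissue could not be checked against its markers, since no clone was paired here with the name of an oocyte, follicle cell or red blood cell marker.

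Most clones differed little between good PM and N eggs. The difference in log2 signal, good PM minus N, had a median of -0.03 over the 8277 clones, with quartiles of -0.13 and 0.08. The 95% interval of a clone's difference had a median half-width of 0.32, and it lay within -1 and 1, a change of less than 2-fold either way, for 98.6% of clones. The differences ran from -1.59 to 1.15. The spread was wider in N eggs, with a median SD of 0.20 over the good PM arrays and 0.24 over the N arrays. The higher SD was in N for 58.6% of clones. The interquartile range also varied more between N arrays (SD 0.17) than between good PM arrays (SD 0.08). With 1 array per female, variation between arrays and between females cannot be told apart.

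At an adjusted p under 0.05 from limma, 12 clones were higher in good PM eggs than in N eggs and 0 were lower (0.145% of the clones tested). In pooled eggs, more mRNA in each egg and more eggs or attached cells that hold it cannot be told apart. At an unadjusted p under 0.05, 387 clones (4.68%) passed, 168 higher and 219 lower. The lowest adjusted p of a lower clone was 0.328. The groups did not overlap for 197 clones (2.38%), 85 of them higher (1.03%) and 112 lower (1.35%) in good PM eggs. If the groups did not differ, 4 females against 4 would fail to overlap in a share of 0.0286. An unadjusted p under 0.05 would then be reached in a share of 0.05. The observed 2.38 and 4.68% of clones lay below these shares. The 12 calls rest on the arrays used. With the 8 arrays of the 2 groups alone, in place of all 28 to estimate the spread, 0 clones were called (269 at an unadjusted p under 0.05, lowest adjusted p 0.144). Leaving out PM replicate 11, 12 or 13 or N replicate 1 or 2 also left 0 calls, leaving out N replicate 3 left tcay0029.j.06 alone and leaving out N replicate 4 left tcay0029.j.06 and tcad0004.e.13. Without PM replicate 14, 17 clones were called, all higher and including the 12. Array weights or thresholds of 70 or 90% normal alevins also left 0 calls, and scaling the arrays to equal spread left tcay0029.j.06. The 70% threshold adds PM replicate 10 to the good PM eggs, and the 90% threshold leaves only PM replicates 13 and 14. With the SAM statistic, after the study's method, 5 clones passed a false discovery rate of 5%, tcay0029.j.06, tcad0004.e.13, tcay0011.c.03, tcay0015.p.09 and 1RT165A10_C_A05.

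**Figure D1:**
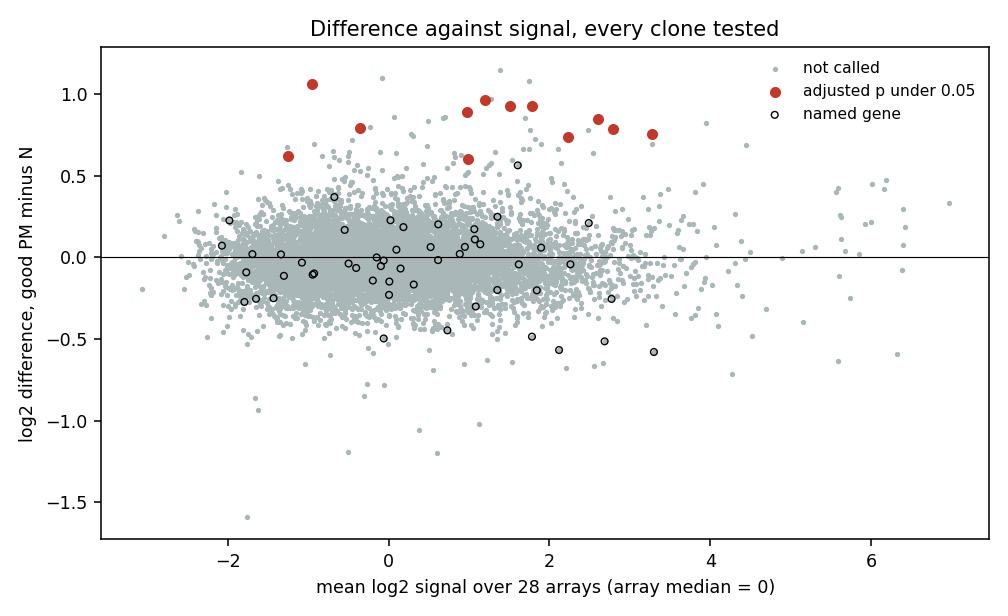
Log2 difference, good PM minus N, of each of the 8277 clones (vertical axis) against its mean log2 signal over the 28 arrays (horizontal axis, 0 is the array median). Red points are the 12 clones with an adjusted p under 0.05, which all lie above 0 and at low as well as high signal, and open circles are the clones that the study pairs with a name.

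Gene names of the 12 clones were not used here, and they are given by their clone names. The change was greatest for tcay0029.j.06, a clone below the array median. It had a log2 signal of -0.35, 0.05, -0.26 and -0.50 in good PM eggs (replicates 11 to 14) and -1.84, -1.49, -1.05 and -0.93 in N eggs (replicates 1 to 4). Good PM eggs thus had 2.09 times the signal of N eggs (difference 1.06, standard error 0.19, 95% interval 0.68 to 1.44, adjusted p = 0.0168 from limma). The lowest good PM female stood above the highest N female. The second clone with that adjusted p, tcad0004.e.13, was well above the median. It had 2.31, 2.54, 2.22 and 2.11 in good PM eggs and 1.15, 1.45, 1.31 and 1.56 in N eggs, a difference of 0.93 (standard error 0.17, 1.90-fold, adjusted p = 0.0168). No females overlapped here either, and the SD was 0.18 in both groups.

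Another 4 clones had an adjusted p of 0.0404. The brightest of the 12 was tcay0011.c.03, with 3.62, 4.01, 3.85 and 3.50 in good PM eggs and 3.11, 2.82, 2.98 and 3.05 in N eggs (difference 0.75, standard error 0.15). tcac0004.k.01 had 3.73, 3.38, 3.30 and 2.94 in good PM eggs and 2.66, 2.53, 2.55 and 2.45 in N eggs (difference 0.79, standard error 0.16). In both, the N females lay close together and the good PM females spread more widely. tcay0015.p.09 had 3.18, 3.05, 2.85 and 2.90 in good PM eggs and 2.07, 2.35, 2.12 and 2.05 in N eggs (difference 0.85, standard error 0.17). tcav0005.f.01 had 2.02, 1.69, 1.61 and 0.93 in good PM eggs and 0.71, 0.84, 0.53 and 0.62 in N eggs (difference 0.89, standard error 0.18). For tcav0005.f.01, PM replicate 14 was much nearer to the N females than to the other 3 good PM females.

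The remaining 6 clones had adjusted p-values of 0.0407 (tcav0001.o.17) and 0.0482. tcav0001.o.17 had 0.21, 0.81, -0.01 and -0.31 in good PM eggs and -0.67, -0.53, -0.77 and -0.50 in N eggs (difference 0.79). tcac0002.m.22 had 2.25, 2.78, 1.89 and 1.58 in good PM eggs and 1.16, 1.37, 1.05 and 1.22 in N eggs (difference 0.93). Both were highest in PM replicate 12 and lowest, among good PM females, in PM replicate 14. tcay0008.e.17 had 1.09, 1.56, 1.36 and 1.05 in good PM eggs and 0.72, 0.53, 0.62 and 0.79 in N eggs (difference 0.60). tcay0028.m.12, the dimmest of the 12 over all 28 arrays, had -0.63, -0.38, -0.78 and -0.95 in good PM eggs and -1.26, -1.54, -1.29 and -1.14 in N eggs (difference 0.62). These were the smallest 2 of the 12 differences. tcay0011.c.23 had 1.63, 1.82, 1.52 and 1.21 in good PM eggs and 0.16, 0.37, 1.05 and 0.75 in N eggs (difference 0.96), with the N females spread more widely than the good PM females. 1RT162E16_C_C08 had 2.81, 2.98, 2.53 and 2.48 in good PM eggs and 1.80, 1.85 and 2.25 in N replicates 1, 2 and 4, without a value in N replicate 3 (difference 0.74).

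**Figure D2:**
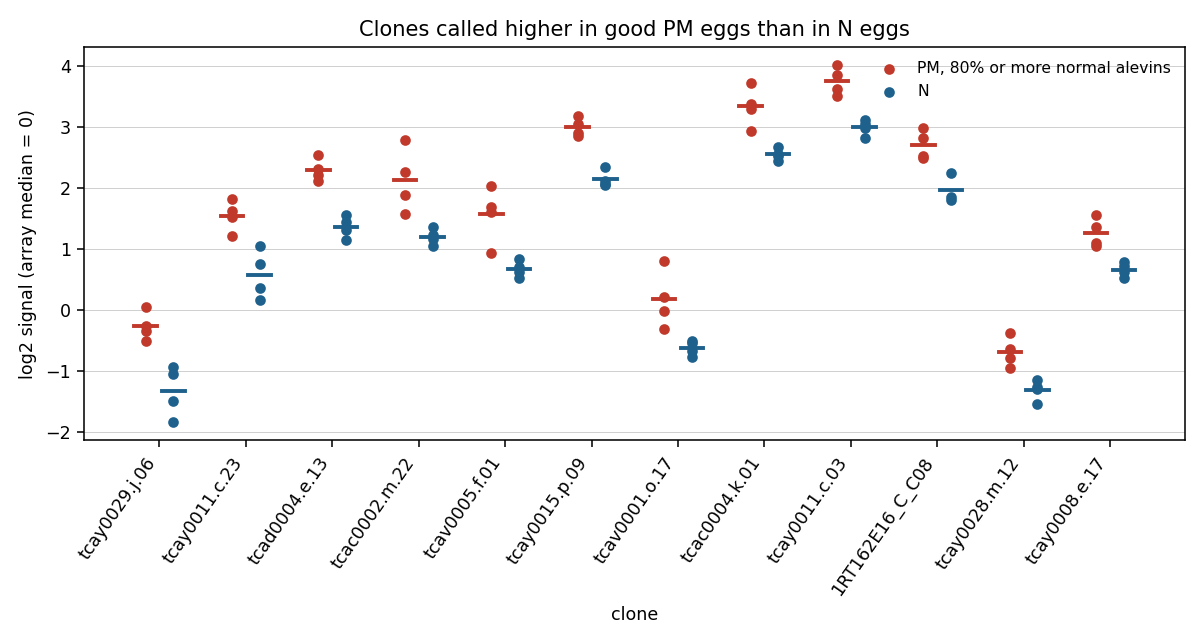
Log2 signal (vertical axis, 0 is the array median) of the 12 clones called higher in good PM eggs, ordered by difference, 1 point per female with good PM females in red on the left and N females in blue on the right of each clone. Bars are group means (n = 4 females each, 3 N females for 1RT162E16_C_C08). In each clone the lowest red point lies above the highest blue point.

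The same good PM females were high and low across the 12 clones. Among good PM eggs, PM replicate 12 was the highest in 9 of the 12 clones and PM replicate 11 in the other 3, and PM replicate 14 was the lowest in 11. Among N eggs the highest female was N replicate 4 in 6 clones, N replicate 2 in 3, N replicate 1 in 2 and N replicate 3 in 1. The lowest was N replicate 1 in 4 clones, N replicates 2 and 3 in 3 each and N replicate 4 in 2, so no N female was highest or lowest in most of them. PM replicates 11 and 12 had 82.5 and 82.8% normal alevins, and PM replicate 14 had 93.8%, so that in these 4 females the clones were not highest where most eggs developed.

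The 12 clones varied together from female to female. Over the 28 females, Pearson's r of the 66 pairs ranged from 0.35 to 0.91 with a median of 0.75, against a median of 0.01 over all pairs of the 7915 clones with a value on every array. The clones had been chosen on 8 of these females. Over the 20 females that were neither good PM nor N, the r of the 66 pairs ran from -0.22 to 0.90 with a median of 0.64 (all pairs 0.01), and with the means of the 3 groups of these females removed it ran from -0.35 to 0.89 with a median of 0.58. The points of such a correlation share an array and its scaling, and clones that hold the same transcript would also move together. Whether any of the 12 do could not be read from their names, 11 of which start with tca, as do 30.2% of the clones tested, and 1 with 1RT (36.1%). No clone with a name starting tcb (33.7% of those tested) was called. Of the 2496 tca clones tested, 78 were higher and 56 lower in good PM eggs at an unadjusted p under 0.05. Of the 2789 tcb clones 24 were higher and 109 lower, and of the 2991 1RT clones 66 and 54. Over all clones tested, 2.03% were higher and 2.65% lower at that unadjusted p.

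Other clones followed the same females without passing the threshold. Of the 8265 other clones, 29 (0.351%) had an r above 0.7 with the mean of the 12 over the 28 females. The 28 include the 8 females on which the 12 were chosen. A clone higher in good PM than in N eggs therefore gains in r, and r was not taken without these females. The closest clone was 1RT165A10_C_A05 (r = 0.91), with a mean log2 signal of 4.44 in good PM and 3.62 in N eggs (difference 0.82, adjusted p = 0.0631 from limma). The next were tcay0005.e.18 (r = 0.88, difference 0.84, adjusted p = 0.0645) and 1RT165A15_A_A08 (r = 0.88, difference 0.78, adjusted p = 0.104). In the other direction tcay0029.m.07 had the lowest r, -0.73, with 1.13 in good PM and 1.28 in N eggs (difference -0.15, adjusted p = 0.997). None of the clones paired with a name came near. DCPS, an enzyme that degrades the cap left by mRNA decay, had the highest r of them, 0.41, and CTNNBL1, a protein that associates with the spliceosome, the lowest, -0.31.

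In the other 3 groups of the study, the median level of the 12 clones lay between those of good PM and N eggs. Each clone was centred on its mean over the 28 females, and the 12 were averaged per female. The averages ran from 0.18 to 0.79 (median 0.52) in good PM eggs, from -0.46 to 0.09 (median -0.08) in PM eggs of lower quality, from -0.07 to 0.26 (median 0.18) in good HI eggs, from -0.32 to 0.18 (median 0.05) in HI eggs of lower quality and from -0.42 to -0.22 (median -0.33) in N eggs. All 4 N females lay below all 5 good HI females. These are levels of clones chosen for the difference between the first and the last of these groups, and they are given as a description.

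**Figure D3:**
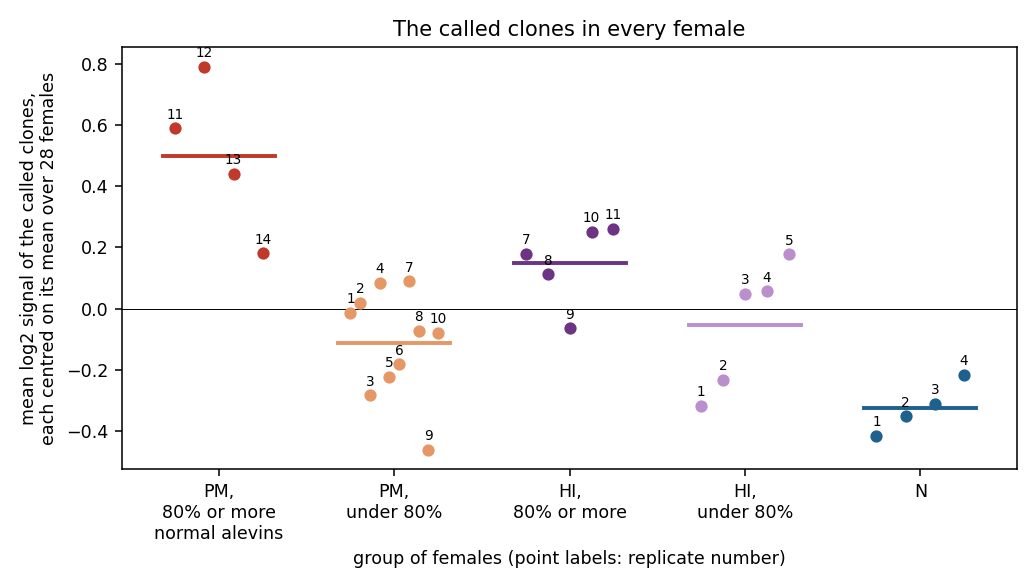
Mean of the 12 called clones in each of the 28 females (vertical axis, log2 signal with each clone centred on its mean over all females), by ovulation group and egg quality (horizontal axis), with the replicate number beside each point and the group mean as a bar. Good PM females sit between 0.18 and 0.79 and N females between -0.42 and -0.22.

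Set against the other PM eggs, of which 0 to 71.5% gave normal alevins, the 12 clones were higher in good PM eggs by a median of 0.64 on the log2 scale, with 9 of them below the adjusted threshold in limma. That comparison called 3.64% of all clones, 215 (2.60%) higher and 86 (1.04%) lower in good PM eggs. For 4 of the 12 clones, and for 1.43% of all clones, every good PM female stood above every other PM female. The largest of these differences was that of tcay0029.j.06, 0.86 (adjusted p = 0.00506), and the smallest that of tcay0008.e.17, 0.31 (adjusted p = 0.0960). This comparison uses the good PM arrays that chose the clones, as do the next values.

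Against good HI eggs, all 12 clones had a higher mean in good PM eggs, by a median of 0.34, and 0 passed (6 were higher at an unadjusted p under 0.05, as were 6.19% of all clones, and 0% of all clones passed after adjustment). Against N eggs, good HI eggs were higher in 11 of the 12, by a median of 0.48, with 0 past an adjusted p under 0.05 from limma (0% of all clones) and 11 higher at an unadjusted p under 0.05 (3.31% of all clones). PM eggs of lower quality were higher than N eggs in 11 of the 12, by a median of 0.17, with 0 past the adjusted threshold and 3 higher at an unadjusted p under 0.05 (5.32% of all clones). After adjustment that comparison called 0.0121% of all clones, 1RT107I13_A_E07 alone, which was lower in the PM eggs and is named after its values were seen. These 2 comparisons share the N arrays with the one that chose the clones. Only the difference between good and low HI eggs used no array of either group, although its p-values use the spread over all 28 arrays. It was above 0 in 11 of the 12 clones, with a median of 0.24 against 0.02 over all clones, and 0 passed (2 were higher at an unadjusted p under 0.05, against 2.68% of all clones, and 0% of all clones passed after adjustment). The 12 clones varied together, so counts such as 11 of the 12 are not counts of separate observations. The share of all clones above 0 was not taken for these comparisons. The lowest good HI female stood above the highest low HI female in 1 of the 12 and in 0.471% of all clones. That clone, 1RT162E16_C_C08, had values in only 3 good HI and 3 low HI females, which makes overlap less likely than with 5 each.

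No clone was called lower in good PM eggs. The 8 lower clones of smallest p, among those with a value on all 8 arrays and without overlap, had adjusted p-values of 0.328 to 0.669 from limma and differences of -0.71 to -0.36. The smallest p was that of 1RT71P07_B_H04, which had 2.05, 2.06, 2.29 and 2.56 in good PM eggs and 2.72, 3.22, 2.80 and 2.82 in N eggs (difference -0.65, standard error 0.18, adjusted p = 0.328). The greatest difference was that of 1RT79G09_A_D05, a bright clone with 3.79, 4.02, 3.87 and 3.73 in good PM eggs and 4.50, 5.02, 4.47 and 4.28 in N eggs (difference -0.71, adjusted p = 0.669). In both clones N replicate 2 had the highest signal. 1RT53K16_C_F08 had 1.83, 1.93, 1.18 and 1.65 in good PM eggs and 1.97, 2.93, 2.38 and 2.01 in N eggs (difference -0.67, adjusted p = 0.636), again with N replicate 2 highest. 1RT142M10_C_G05 had 0.36, 0.26, 0.28 and 0.30 in good PM eggs and 1.18, 0.44, 1.20 and 0.65 in N eggs (difference -0.57, adjusted p = 0.636), where the N females spread over a much wider range than the good PM females. tcbk0024.n.01 differed by -0.42 (adjusted p = 0.669) and another clone with a name starting tcbk by -0.36 (adjusted p = 0.629). The other 2 of the 8 were RBM5 and PKP1, described next.

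The study pairs clones with names, mostly human gene symbols, in a list of clones that differed among ovulation groups and a list linked to egg quality, both chosen on these samples. Of 54 such clones used here 51 could be tested, and limma called 0 of them between good PM and N eggs at an adjusted p under 0.05. From the list of group differences, 9 were higher and 13 lower in good PM eggs, with 1 higher and 6 lower at an unadjusted p under 0.05 and a median difference of -0.02. From the list of egg quality, 11 were higher and 18 lower, with 0 higher and 2 lower at an unadjusted p under 0.05 and a median of -0.04. Over all clones tested, 2.03% were higher and 2.65% lower at that unadjusted p, 43.5% of the differences were above 0 and the median was -0.03. The tests left out DAB2, an endocytic adaptor, ALG2, a mannosyltransferase of N-glycosylation, and LRTM1, each with a value in 2 N females. DAB2 had 2.16, 2.28, 1.88 and 2.01 in good PM eggs and 1.72 and 1.86 in N replicates 3 and 4.

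Among metabolic enzymes and mitochondrial proteins, DDAH2 had the smallest p of the named clones. DDAH2 breaks down methylated arginines that inhibit nitric oxide synthesis. It had 1.91, 2.04, 2.03 and 1.89 in good PM eggs and 1.97, 1.17, 1.21 and 1.26 in N eggs, a difference of 0.56 (standard error 0.17, 95% interval 0.22 to 0.90, unadjusted p = 0.00196, adjusted p = 0.426 from limma). The 4 good PM females lay close together, and N replicate 1 lay among them while the other 3 N females lay lower. Without N replicate 1 the difference was 0.75 (adjusted p = 0.0806), and without N replicate 1 and PM replicate 4, which carry the same female number, it was again 0.75 with an adjusted p of 0.0452, the 1 clone called in that fit. Each sample left out held the DDAH2 value farthest from the others of its treatment. Leaving out such values by itself raises the difference or narrows the spread. The study also chose DDAH2 on these samples, so this call is not separate evidence. PM replicate 4, with 5% normal alevins and 8% eyed embryos against 95.9 and 96% in N replicate 1, had a DDAH2 signal of 1.30, the lowest of the 14 PM females (1.73 to 2.21 in the other 13) and nearest to the other N females. Of the 8 named clones lower in good PM eggs at an unadjusted p under 0.05, PM replicate 4 was the highest PM female in RBM5 (2.41), RPN2 (3.65), PKP1 (0.22), CA388269 (3.04) and CTNNBL1 (1.17). The next PM female had 2.25, 3.55, 0.19, 3.03 and 1.10 in these clones. It was PM replicate 7 in RBM5, RPN2 and CA388269. N replicate 1 was the lowest N female in RBM5, RPN2, PKP1 and CA388269 and the highest in CTNNBL1. It had 1.98, 3.15, 0.13, 2.43 and 1.56 there, and the next N female 2.13, 3.33, 0.16, 2.44 and 1.53. Several of these margins were small. In ING1, MCF2L and PDGFRA, PM replicate 4 ranked 13, 12 and 4 of the 14 PM females from the lowest up. N replicate 1 ranked 2 among the N females in each of these. In the centred mean of the 12 called clones, N replicate 1 was the lowest N female (-0.42). PM replicate 4 had 0.08 there, within the range of the low PM females (-0.46 to 0.09). Without both samples the differences of RBM5, RPN2, PKP1 and CA388269 were -0.66, -0.68, -0.54 and -0.62 (adjusted p = 0.264 to 0.400 from limma). Whether the labels of the pair were switched was not tested. DDAH2 averaged 1.97 in good PM, 1.88 in low PM, 1.22 in good HI and 1.40 in N eggs. The other members of the list, the mitochondrial chaperone HSPA9B (difference 0.06), the scaffold protein PHB2 (-0.05), the pyruvate carboxylase PYC (0.06), the ketohexokinase KHK (-0.10) and MR-1 (0.11), had 95% intervals that spanned 0.

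Of 4 clones for RNA processing and decay, 2 were lower at an unadjusted p under 0.05, as were 2.65% of all clones. The study chose these clones on the same samples for a difference among groups or a link to egg quality. An excess over the share of all clones therefore cannot be read as a trait of RNA processing. RBM5, a splicing regulator, had 1.50, 1.71, 1.60 and 1.97 in good PM eggs and 1.98, 2.74, 2.20 and 2.13 in N eggs (difference -0.57, standard error 0.17, adjusted p = 0.509 from limma). The groups did not overlap, but PM replicate 14 and N replicate 1 nearly met. CTNNBL1 had 0.83, 0.71, 0.73 and 0.85 in good PM eggs and 1.56, 0.81, 1.53 and 1.00 in N eggs (difference -0.45, adjusted p = 0.977). Here N replicates 1 and 3 stood high and N replicate 2 lay among the good PM females. The RNA-binding protein HNRPK had 1.22, 1.02, 1.51 and 1.80 in good PM eggs and 1.19, 1.10, 1.19 and 1.75 in N eggs (difference 0.08, 95% interval -0.26 to 0.42), and DCPS differed by 0.02 (-0.27 to 0.31). For both the females of the groups were mixed.

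The ribosomal proteins RL10 and RPL24, of the large subunit, did not differ in one direction. RL10 had -0.33, -0.09, 0.92 and 0.59 in good PM eggs and 0.24, 0.35, 0.44 and 0.13 in N eggs (difference -0.02, 95% interval -0.49 to 0.45). The good PM females fell on both sides of the N females, PM replicates 11 and 12 below and PM replicates 13 and 14 above. RPL24 had -0.21, -0.49, 0.08 and -0.65 in good PM eggs and -0.22, 0.45, -0.43 and -0.995 in N eggs (difference -0.02, 95% interval -0.56 to 0.52). With 4 females a group, these intervals hold changes of about 0.5 in either direction.

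Clones for lipid transport and lipid enzymes did not pass in either direction, 2 being higher and 3 lower. APOC1, a small apolipoprotein of plasma lipoproteins, had -0.77, -0.68, -0.98 and -0.97 in good PM eggs and -0.97, -1.32, -1.58 and -1.01 in N eggs (difference 0.37, 95% interval -0.24 to 0.98, adjusted p = 0.997 from limma). APOB, the large structural apolipoprotein of LDL particles, had 0.40, 0.20, 0.48 and 0.78 in good PM eggs and 0.20, 0.10, 0.10 and 0.55 in N eggs (difference 0.23, 95% interval -0.12 to 0.57). In both genes the groups overlapped, with N replicate 1 within the range of the good PM females in APOC1 and N replicates 1 and 4 within it in APOB. Against the other PM eggs, APOB was higher in good PM eggs by 0.83 (adjusted p = 0.00399), but the study chose it for egg quality on these samples. PGH2, an enzyme of prostaglandin synthesis, had 1.15, 1.25, 1.24 and 1.04 in good PM eggs and 2.15, 1.02, 1.60 and 1.11 in N eggs (difference -0.30, 95% interval -0.71 to 0.11). LYPA3, a lysosomal phospholipase, differed by -0.17 (-0.40 to 0.07) and OSBPL5, an oxysterol-binding protein, by -0.14 (-0.67 to 0.39). The 4 plasma proteins APOB, APOC1, the iron carrier TF and VWF, of which the first pair is counted above, had a median difference of 0.21, 3 higher and 1 lower, with 0 past the threshold.

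Of 25 clones tested for the secretory pathway, the cytoskeleton, transcription and signalling, 5 were lower and 0 higher at an unadjusted p under 0.05 (2.65% of all clones lower and 2.03% higher), and 0 passed after adjustment by limma. These clones too were chosen by the study on these samples, so the count cannot be read as a trait of these kinds of gene. RPN2, a subunit of the oligosaccharyltransferase that glycosylates proteins in the endoplasmic reticulum, had 2.74, 2.63, 2.83 and 3.28 in good PM eggs and 3.15, 3.92, 3.33 and 3.39 in N eggs (difference -0.58, adjusted p = 0.726). PKP1, a plakophilin of desmosomes, had -0.08, 0.06, -0.30 and -0.66 in good PM eggs and 0.13, 0.50, 0.16 and 0.22 in N eggs (difference -0.50, adjusted p = 0.537). ING1, a chromatin regulator, had 1.13, 1.55, 1.69 and 1.71 in good PM eggs and 1.89, 2.34, 1.86 and 1.92 in N eggs (difference -0.49, adjusted p = 0.726). PKP1 and ING1 did not overlap, whereas in RPN2 PM replicate 14 lay above N replicate 1. The clone CA388269, with no gene name and in none of these lists, had 2.31, 2.49, 2.03 and 2.16 in good PM eggs and 2.43, 3.26, 2.92 and 2.44 in N eggs (difference -0.51, adjusted p = 0.805). The receptor PDGFRA had -1.43, -1.48, -1.40 and -1.42 in good PM eggs and -1.23, -1.21, -1.33 and -0.97 in N eggs, a small difference of -0.25 without overlap (adjusted p = 0.977). MCF2L had -1.89, -1.66, -1.79 and -2.02 in good PM eggs and -1.60, -1.46, -1.75 and -1.45 in N eggs (difference -0.27, adjusted p = 0.977). The remaining clones, among them the ligand BMP7 (-0.07), the receptor TGFBR2 (0.06) and the kinesin KIF4A (-0.20), had intervals that spanned 0. The cullin CUL5 (0.17) and the amidase NTAN1 (-0.000745), listed for protein turnover and not among the 25, also had intervals that spanned 0.

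**Figure D4:**
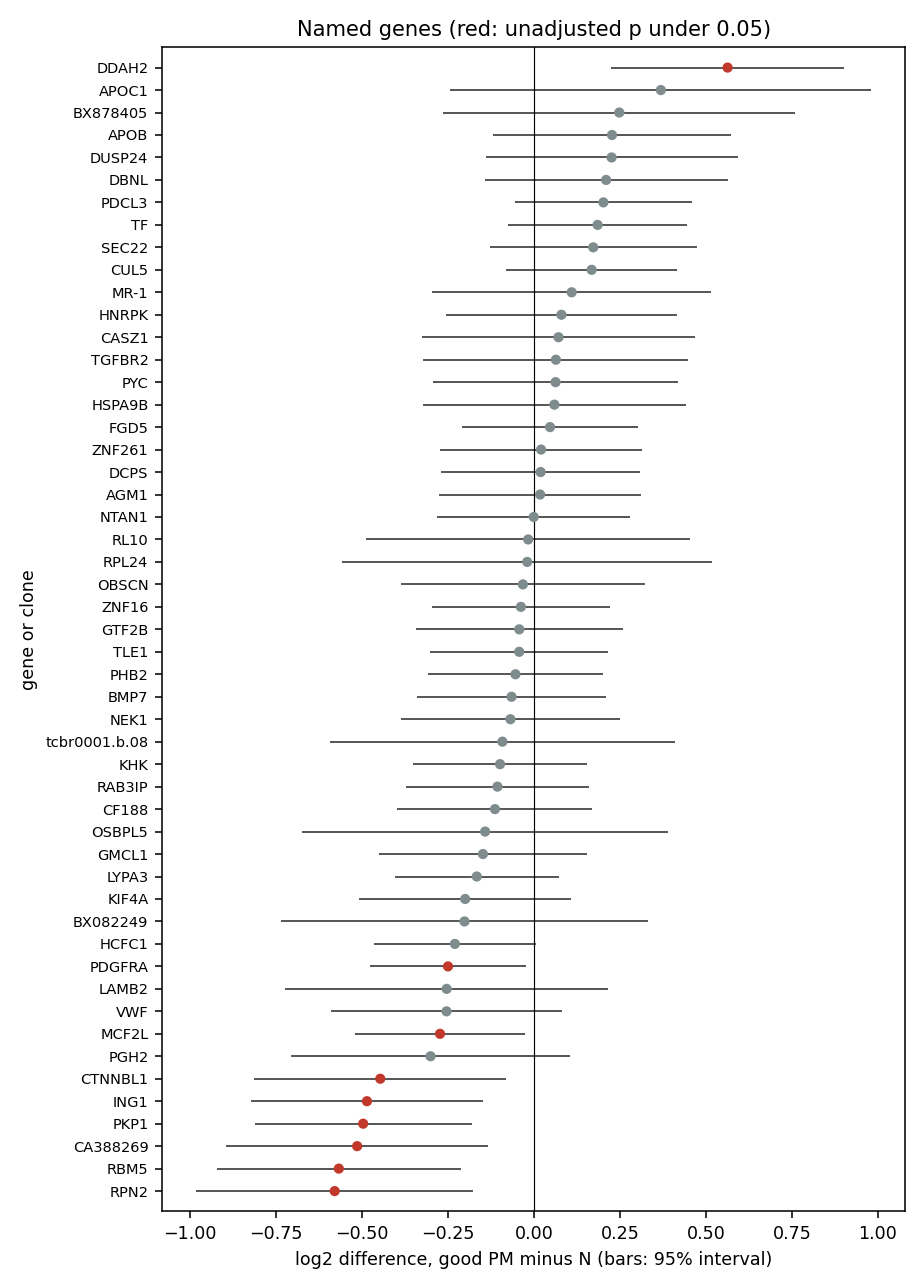
Log2 difference, good PM minus N (horizontal axis), of the 51 named clones tested, with 95% intervals from limma as bars. Red points have an unadjusted p under 0.05, 1 of them (DDAH2) above 0 and 8 below, and 0 passed after adjustment over all clones.

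RBM5, RPN2, ING1, PKP1 and CA388269 were also set against the other groups, which share the arrays of good PM eggs. Good PM eggs differed from low PM eggs by -0.25, -0.25, -0.04, -0.12 and -0.29 in these 5 clones (adjusted p = 0.28 to 0.899 from limma), and from good HI eggs by -0.64, -0.65, -0.38, -0.30 and -0.73 (adjusted p = 0.128 to 0.363). CTNNBL1, PDGFRA and MCF2L were the other named clones lower than in N eggs at an unadjusted p under 0.05. In these, good PM eggs differed from low PM eggs by -0.05, 0.09 and 0.09. From good HI eggs they differed by 0.39, 0.01 and -0.15.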

How the data were processed

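Arrays of 28 females, 1 each, were analysed here. The authors labelled cDNA radioactively, hybridised it to nylon arrays of cDNA clones spotted in duplicate, left out spots with a low vector oligonucleotide signal, scaled each spot by the DNA it held and then each array by its median. The deposited values are these intensities on a linear scale. The sources used here do not say how duplicate spots were merged. Values of 0 (6.55% of clone values on the 8 arrays) were treated as missing, and 193 of 9216 rows that name no clone were left out. Log2 values were fitted with limma 3.58.1 in R 4.3.3 as 5 group means over 28 arrays, and the contrast good PM minus N was adjusted by Benjamini-Hochberg over all clones with at least 3 values per group. Arrays hold no read depth, and the number of arrays limits the precision. The fit was tested on simulated data with known changes. The simulated clones varied independently, each with the same spread in every group. The simulation therefore did not cover clones that vary together or spreads that differ between groups. Figures were drawn with matplotlib 3.10.9. The comparison and the lists were chosen with earlier results of these data known. The clones described were drawn from those that the study pairs with a name, the called clones, the 8 lower and 8 higher clones of smallest p without overlap, and the 5 of largest difference each way. Not each of them is named in the text, and the others stand in its counts and in the plot of named clones. Correlations among called clones and the comparison of good with low HI eggs were chosen after the data were seen. Some clones of the study's lists are not reported here. Alternatives were the arrays fitted, normalization, filters, variance model, array weights, a covariate, SAM, other thresholds of normal alevins and leaving out arrays.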

Additional observations from a re-analysis of the deposited data

Results flagged for a closer look

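In 4 of 79 groups of 4 females, 1 female lay far from the other 3, where chance gives about 1 in 20 groups, and all 4 were N females. DDAH2 was 1.97 in N replicate 1 (nearest N female 1.26), HNRPK 1.75 in N replicate 4 (nearest 1.19) and ING1 2.34 in N replicate 2 (nearest 1.92), on the log2 scale. Malformed alevins were 2.7% in N replicate 2 (nearest 1.4%).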

How the results depend on the processing

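The 12 calls, all higher in good PM eggs, were sensitive to the arrays and to the spread assumed. No alternative called a clone lower, and the 12 clones kept a positive difference (0.44 to 1.19) in every fit that gave one, with adjusted p up to 0.725. In each of the 12 every good PM female stood above every N female. Fits that only leave out arrays or change the filter or variance model could therefore not change this sign. The number called was 0 with the 8 arrays alone, 0 with array weights and 0 with PM eggs from 70% normal alevins. It was 0 with PM eggs from 90%, which leaves only PM replicates 13 and 14 (752 at an unadjusted p under 0.05). It was 1 with arrays scaled to 1 median absolute deviation (tcay0029.j.06), 1 without the samples of the same female number (DDAH2) and 5 with SAM. It was 0 to 17 when 1 array was left out. It stayed between 9 and 13 with quantile normalization (9, of which 8 were among the 12), the array interquartile range as a covariate (13, including the 12), a value on all 8 arrays (10), at least 2 values per group (12) and a variance trend (9). With only clones above the array median it was 11, of which 9 were among the 12. The rest of the 12, tcay0029.j.06 among them, lay below the median and were not in that fit. The cause of these shifts was not tested. Differences near 0 changed sign. With array weights RL10 became 0.0257 and DCPS -0.0197. With PM eggs from 70% normal alevins RL10 became 0.0551, RPL24 0.0521 and DCPS -0.0444, and with PM eggs from 90% they became 0.46, 0.0131 and -0.20. Without the samples of the same female number RPL24 became 0.00696 and DCPS -0.0408. Without 1 array, RL10 ranged from -0.23 to 0.18, RPL24 from -0.25 to 0.23, DCPS from -0.13 to 0.12, HNRPK from -0.0576 to 0.23, OSBPL5 from -0.33 to 0.0531 and the difference in array interquartile range from -0.0530 to 0.0675. No paired analysis was possible because the good PM and N eggs came from separate groups of females, and the labels give no pairing between them. Signal over background could not be assessed, since the deposited values carry no background.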
